A study of Mus musculus with 6 samples.

Results

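The genes described here are 10 members of the matrix metalloproteinase (MMP) system: the proteinase genes Mmp2, Mmp8, Mmp9, Mmp12, Mmp13, Mmp14 and Mmp19 and the inhibitor genes Timp1, Timp2 and Timp3. They were chosen by gene symbol, with earlier results of these data known, as 10 of the 52459 symbols in the count table. All 10 passed the filter on low counts, which 15380 genes passed. Of 17 other MMP and TIMP genes, 10 passed it. The cells were macrophages grown from the bone marrow of C57BL/6 mice in the presence of the myeloid growth factor GM-CSF. From day 7 of culture they received overnight either vehicle (3 control libraries) or piceatannol (3 libraries). Piceatannol is a stilbene from plants, close to resveratrol in structure, and is known to inhibit the kinase Syk. The dose, the vehicle and the animals' age and sex were not given in the sources used here. Nothing in the labels says that replicate libraries stem from different animals or dishes, so p-values here reflect the spread between these libraries, which may be technical.

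MMPs are zinc-dependent endopeptidases that cut collagens, elastin, gelatin and many other proteins outside the cell. Most are secreted as inactive proenzymes and gain activity when the propeptide is removed, and TIMPs (tissue inhibitors of metalloproteinases) bind the active site and block it. Macrophages use MMPs to move through matrix, to clear it and to process cytokines and chemokines. mRNA levels measure neither secretion nor activation.

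The libraries held between 33276569 and 58697084 counts. Over the tested genes, Pearson's r between libraries (log2 CPM) was 0.9906 to 0.9954 within groups and 0.9055 to 0.9161 across them, and genes are not independent replicates. Mitochondrially encoded genes took 0.777% to 0.866% of the counts in control and 1.87% to 2.65% in piceatannol libraries. All 10 macrophage markers examined were detected, from Marco at a mean of 1.20 FPKM in control to the lysozyme gene Lyz2 at 11306 FPKM, and 3 of them rose and 7 fell with piceatannol. They summed to between 18981 and 22961 CPM in control and between 13492 and 14947 CPM in piceatannol libraries. Their log2 fold changes ran from -3.35 for Fcgr1 to 1.93 for Cd14. Markers of other cell types were present too. The 10 stromal markers summed to between 2392 and 2656 CPM in control and between 570 and 657 CPM in piceatannol libraries, and 8 of them fell, with none at 0. The 14 neutrophil markers summed to 317, 678 and 432 CPM in control replicates 1, 2 and 3 and to between 58.6 and 68.2 CPM in piceatannol libraries. All 12 that were tested fell, and Ly6g, which defines neutrophils, lay between 0 and 7 counts per library. Among the 12, Camp, Elane and Mpo passed the filter on low counts only through their control libraries. The count of falls thus rests in part on that filter. The dendritic cell markers summed to between 780 and 806 CPM in control and between 417 and 634 CPM in piceatannol libraries. Of these 7 were tested, 1 rose and 5 fell, with Cd209a falling most (log2 fold change -5.51). Ccr7, at a mean of 563 CPM in control, made up most of their sum and did not pass. Of the eosinophil, basophil and mast cell markers, which summed to at most 4.56 CPM, 4 were tested and 3 fell. These 3 passed the filter on low counts only through their control libraries, so their count rests on that filter. These marker counts stand beside 38.8% of all tested genes rising and 38.3% falling. In such bulk samples, fewer cells of a type and less RNA per cell cannot be told apart.

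Promoter sequences are shown first for members that lie in one chromosomal cluster and differed in their response, and for Timp1 as the most abundant inhibitor. RefSeq windows on GRCm38.p6 were matched for 7 of the 10 members (8 windows, since Mmp12 has 2 start sites): Mmp8, Mmp12, Mmp13, Mmp14, Timp1, Timp2 and Timp3. The sequences below are the 120 bases before the annotated start, 5′ to 3′ on the gene's strand, which is the plus strand for each of them. Capitals mark matches to the AP-1 motif TGANTCA or the TATA motif TATAAA.
Mmp13, chr9:7272394-7272513: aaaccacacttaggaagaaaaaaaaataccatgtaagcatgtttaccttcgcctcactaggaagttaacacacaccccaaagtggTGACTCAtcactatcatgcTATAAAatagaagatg
Mmp12, first start site, chr9:7344277-7344396: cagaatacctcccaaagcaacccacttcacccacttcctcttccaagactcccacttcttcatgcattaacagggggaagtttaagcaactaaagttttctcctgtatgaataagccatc
Mmp12, second start site, chr9:7347254-7347373: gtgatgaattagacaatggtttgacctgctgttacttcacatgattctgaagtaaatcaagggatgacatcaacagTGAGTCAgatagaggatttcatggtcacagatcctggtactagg
Mmp8, chr9:7558309-7558428: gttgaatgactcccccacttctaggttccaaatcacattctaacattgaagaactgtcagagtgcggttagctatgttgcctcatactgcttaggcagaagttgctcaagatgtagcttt
Timp1, chrX:20870046-20870165: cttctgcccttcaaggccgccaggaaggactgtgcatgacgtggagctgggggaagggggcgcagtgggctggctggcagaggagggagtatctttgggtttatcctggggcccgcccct

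In the 250 bases before the start, searched on both strands, the AP-1 motif was found in 2 of the 8 member windows, that of Mmp13, starting 35 bases before the start, and that of the second Mmp12 site, starting 44 bases before it. Among all 32851 RefSeq promoter windows 6.75% hold it. TATAAA was found in the Mmp13 window, 16 bases before the start, and in 12.4% of all windows. The C/EBP motif TTGCNNAA and the PU.1 motif GAGGAAG were each found in the window of Mmp8 and in that of the first Mmp12 site, against 9.56% and 10.6% of all windows. The antioxidant response motif TGACNNNGC was found in the Timp2 window alone among members (10.2% of all windows), and the heat shock motif GAANNTTC in none of them (6.69% of all windows). None of these motifs overlapped another in the member windows. The GC content of the windows was 39.6% to 44.8% for Mmp8, Mmp12 and Mmp13, against 54.4% to 68% for Mmp14 and the 3 TIMP genes, with a median of 52.4% over all windows. A match describes letters in a window and is not a binding site.

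The comparison asks how piceatannol changed transcript levels in these macrophages. Mmp13, Mmp12 and Mmp19 rose, Mmp2, Mmp9, Mmp14 and all 3 TIMP genes fell, and Mmp8 did not pass the test. Mmp12, the most abundant MMP transcript in both groups, was among those that rose, while each inhibitor gene was lower. Of the 10 members, 3 rose and 6 fell by edgeR's quasi-likelihood test, where 38.8% of all tested genes rose and 38.3% fell. A call was the rule in this comparison: 77% of all tested genes were called, so that 9 of 10 members is near the background. The members' median log2 fold change was -0.67, beside 0.01 over all tested genes. Called changes of at least 2-fold were found for 7 members, 3 upward and 4 downward, where 34% of all tested genes were called with a change of that size. The CPM of the groups did not overlap for 9 members, nor for 79% of all tested genes.

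**Figure D1:**
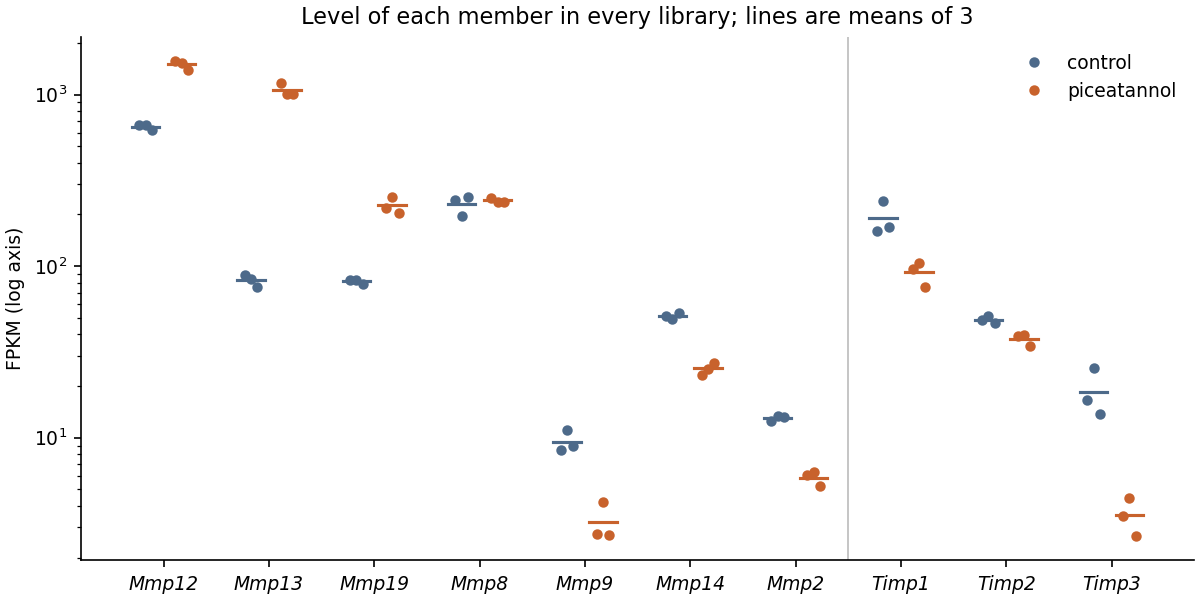
FPKM (log axis) of each member in the 3 control (blue) and 3 piceatannol (orange) libraries, with points for libraries and short lines for means. The piceatannol points lie above all control points for Mmp12, Mmp13 and Mmp19, below them for Mmp9, Mmp14, Mmp2 and the 3 TIMP genes, and overlap them for Mmp8.

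Mmp12 encodes macrophage elastase, an elastin-cutting enzyme made mainly by macrophages. It lies on chromosome 9, 7344381 to 7369499 (GENCODE M21 on GRCm38, as for all gene positions here). Its level was 664, 668 and 619 FPKM in control and 1579, 1537 and 1394 FPKM in piceatannol libraries. Every piceatannol library was above every control library, and the spread within groups was small beside the gap. Mmp12 rose 2.35-fold, a log2 fold change of 1.23 with an SE of 0.08 (edgeR's quasi-likelihood test, adjusted p = 1.81e-11). Its share of all counts was 0.475% ± 0.0202 in control and 1.09% ± 0.0669 with piceatannol (SD, n = 3 each). By raw counts it ranked 7 or 8 among all genes in the control libraries and 3 in each piceatannol library.

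Mmp13 encodes collagenase 3, which cuts fibrillar collagens, type II above all, and is known from cartilage and bone. It lies on chromosome 9, 7272514 to 7283331, next to Mmp12. Its level was 89.3, 84 and 75.4 FPKM in control and 1168, 1011 and 1004 FPKM in piceatannol libraries. The lowest piceatannol library was thus far above the highest control library. Mmp13 rose 13-fold (95% interval 11.5 to 14.8), a log2 fold change of 3.70 with an SE of 0.09 (edgeR's quasi-likelihood test, adjusted p = 2.68e-18), the largest change among the members. Mmp13 is known from bone, where cells other than macrophages make it, and no marker list was made for those bone cells. The osteoclast markers summed to between 243 and 261 CPM in control and between 150 and 164 CPM in piceatannol libraries. Of 6 tested markers 2 rose, Ctsk (log2 fold change 1.38) and Acp5 (0.58), and 2 fell, Dcstamp (-1.93) and Nfatc1 (-1.23). Over all tested genes 38.8% rose and 38.3% fell. Calcr was at 0 in every library. The part of osteoclasts or of other bone cells in the rise of Mmp13 was not tested.

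Mmp19, on chromosome 10 (128790910 to 128800824), encodes a secreted MMP that cuts basement membrane proteins. Its level was 82.8, 83.1 and 78.8 FPKM in control and 219, 254 and 205 FPKM in piceatannol libraries, with no overlap between the groups. Mmp19 rose 2.81-fold, a log2 fold change of 1.49 with an SE of 0.07 (edgeR's quasi-likelihood test, adjusted p = 1.8e-13). The gene Tmem198b runs on the opposite strand and shares 789 exon bases with Mmp19, so without a stated strand setting reads there cannot be assigned to one gene. Tmem198b moved the other way, from 1823 to 2522 counts per control library to 1155 to 1622 counts per piceatannol library, a log2 fold change of -0.36. A second gene on the opposite strand, Gm47093, shares 212 exon bases with Mmp19 and was not analysed here. Mmp1b shares 157 exon bases with Mmp12 on the opposite strand and had 0 counts in every library.

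Mmp8, on chromosome 9 (7558456 to 7568485), encodes the collagenase stored in neutrophil granules. Its level was 243, 197 and 252 FPKM in control and 250, 237 and 238 FPKM in piceatannol libraries, and the groups overlapped. The fold change was 1.06 with a 95% interval of 0.948 to 1.19 (edgeR's quasi-likelihood test, adjusted p = 0.311). Without control replicate 2, the lowest control library, the log2 fold change was -0.02 in place of 0.09, and neither passed. Among the controls, 10 of the 12 tested neutrophil markers were highest in that same library, and the other two, Csf3r and Cxcr2, in control replicate 3. Their part in the level of Mmp8 was not tested.

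Mmp9 and Mmp2 encode the gelatinases, which cut denatured collagen and basement membrane collagen. Mmp9, also a neutrophil granule protein, lies on chromosome 2 (164940780 to 164955850). Its level was 8.43, 11.1 and 8.94 FPKM in control and 2.76, 4.2 and 2.7 FPKM in piceatannol libraries. The groups did not overlap, and replicate 2 was the highest library in each. Mmp9 fell 2.92-fold, a log2 fold change of -1.55 with an SE of 0.18 (edgeR's quasi-likelihood test, adjusted p = 0.000107). The neutrophil markers fell with it, their sum was also highest in control replicate 2, and their part in this result was not tested. Without control replicate 2 the log2 fold change of Mmp9 was -1.43.

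Mmp2, on chromosome 8 (92827291 to 92853420), is activated at the cell surface by the membrane-bound enzyme of Mmp14, a step in which TIMP2 serves as the bridge between them. The level of Mmp2 was 12.5, 13.3 and 13.2 FPKM in control and 6.04, 6.33 and 5.21 FPKM in piceatannol libraries, with no overlap. It fell 2.19-fold, a log2 fold change of -1.13 with an SE of 0.08 (edgeR's quasi-likelihood test, adjusted p = 5.86e-11). Mmp14, on chromosome 14 (54431612 to 54445364), was at 50.9, 49.0 and 53.0 FPKM in control and at 23.3, 25.2 and 27.4 FPKM in piceatannol libraries. Its groups were also apart, and it fell 1.98-fold, a log2 fold change of -0.99 with an SE of 0.07 (edgeR's quasi-likelihood test, adjusted p = 2.51e-11). All 3 genes of this surface step, Mmp2, Mmp14 and Timp2, were lower with piceatannol (the values of Timp2 follow with the inhibitors). The ratio of Mmp14 to Timp2 in FPKM was 1.05 ± 0.0934 in control and 0.679 ± 0.11 with piceatannol (SD, n = 3 each). Its size depends on the gene lengths behind the FPKM: with the lengths of the principal transcripts, which are shorter than the merged exons, it was 2.27 ± 0.202 and 1.47 ± 0.236, above 1 in every library.

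Timp1, the inhibitor gene with the highest level, lies on chromosome X (20870166 to 20874735). TIMP1 is a secreted inhibitor that also binds the proenzyme of MMP9. Its level was 161, 239 and 169 FPKM in control and 96.6, 104 and 75.8 FPKM in piceatannol libraries. The groups did not overlap, but control replicate 2 stood well above the other controls, and replicate 2 was the highest in each group. Timp1 fell 2.02-fold with a 95% interval of the log2 fold change from -1.57 to -0.46, wide beside that of most MMP members (edgeR's quasi-likelihood test, adjusted p = 0.00839). Without control replicate 2 the log2 fold change was -0.82 in place of -1.02, with an adjusted p of 0.000272.

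Timp3, on chromosome 10 (86300372 to 86349506), encodes the inhibitor that stays bound to the matrix and also blocks ADAM proteinases. Its level was 16.5, 25.5 and 13.7 FPKM in control and 3.48, 4.46 and 2.66 FPKM in piceatannol libraries. Replicate 2 was the highest in each group, and no piceatannol library reached the lowest control. Timp3 fell 5.20-fold, a log2 fold change of -2.38 with an SE of 0.34 (edgeR's quasi-likelihood test, adjusted p = 0.00274), the largest fall among the members. Without control replicate 2 it was -2.09. Timp2, on chromosome 11 (118301069 to 118355740), was at 48.4, 51.2 and 46.3 FPKM in control and at 39.0, 39.7 and 34.1 FPKM in piceatannol libraries. It fell 1.27-fold, the smallest of the called changes among members, at a log2 fold change of -0.35 with an SE of 0.06 (edgeR's quasi-likelihood test, adjusted p = 6.23e-05). Stromal cells are a known source of TIMPs, Mmp2 and Mmp14, and 8 of the 10 stromal markers fell with these genes, where 38.3% of all tested genes fell. The median log2 fold change over the list was -1.02. Col1a1 was at -2.04, while Dcn (-0.26) and Lum (-0.70) did not pass. Their part in the falls was not tested.

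**Figure D2:**
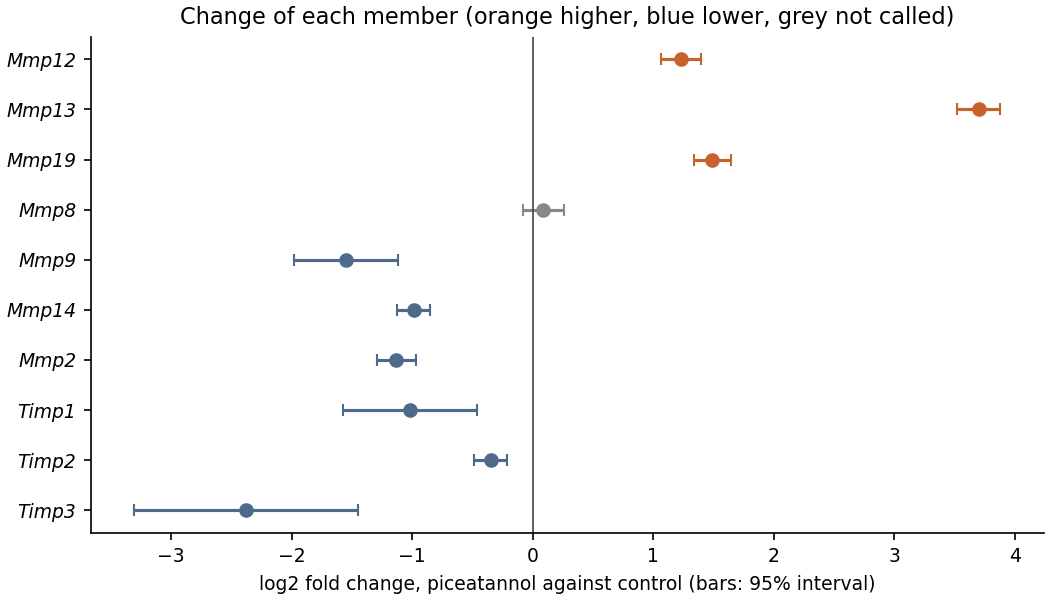
Log2 fold change of each member, piceatannol against control, with 95% intervals from edgeR's quasi-likelihood fit. Mmp13 stands at 3.70 and Timp3 at -2.38, and the interval of Mmp8 alone crosses 0.

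Each TIMP gene overlaps a gene on the same piece of chromosome. Timp1 lies wholly inside Syn1, the synapsin I gene on the opposite strand, without shared exon bases. Timp3 lies wholly inside Syn3, also on the opposite strand, with 1733 shared exon bases. Syn1 fell as well, from 2240 to 2711 counts per control library to 401 to 593 counts per piceatannol library (log2 fold change -1.98). Syn3 went from 93 to 177 counts to 55 to 66 counts (-0.86), far below the 6613 to 9067 counts of Timp3 in control libraries. Cep295nl overlaps Timp2 on the same strand, without shared exon bases, and had 7 to 39 counts per library. With no strand setting stated, reads of Timp3 and Syn3 in the shared bases cannot be told apart.

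Per length, the order of the members in control was Mmp12, Mmp8, Timp1, Mmp13, Mmp19, Mmp14, Timp2, Timp3, Mmp2 and Mmp9 by mean FPKM. Neighbours whose libraries overlapped in control were Mmp8 and Timp1, Mmp13 and Mmp19, and Mmp14 and Timp2. In piceatannol libraries the order was Mmp12, Mmp13, Mmp8, Mmp19, Timp1, Timp2, Mmp14, Mmp2, Timp3 and Mmp9, with overlap between Mmp8 and Mmp19 and between Timp3 and Mmp9. Mmp13 thus went from the fourth place to the second, and Timp1 from the third to the fifth. With principal transcript lengths Mmp13 ranked 6 and Mmp14 ranked 4 in control, and with piceatannol Mmp14 ranked 6 and Timp2 ranked 7, the reverse of their order by FPKM. The other members kept their ranks.

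Summed over the 7 MMP members, the level was 1119 ± 27.7 FPKM in control and 3066 ± 186 FPKM with piceatannol (SD, n = 3 each). Mmp12 made up 58.1% ± 2.12 of that sum in control and 49.0% ± 0.835 with piceatannol, and Mmp13 went from 7.40% ± 0.482 to 34.6% ± 1.57. Mmp8, whose level overlapped between the groups, went from 20.6% ± 2.57 to 7.89% ± 0.316 of the sum. With principal transcript lengths these shares went from 70.8% ± 1.74 to 65.3% ± 0.745 for Mmp12, from 4.49% ± 0.268 to 23.0% ± 1.16 for Mmp13 and from 12.5% ± 1.70 to 5.24% ± 0.224 for Mmp8, in the same directions. The 5 other MMP members together went from 386 ± 28.1 to 502 ± 24.4 FPKM, so most of the added sum came from Mmp12 and Mmp13. The 3 TIMP members summed to 257 ± 51.0 FPKM in control and 133 ± 18.6 FPKM in piceatannol libraries, and Timp1 made up 73.6% ± 2.24 and 69.0% ± 1.52 of these sums.

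The ratio of summed MMP to summed TIMP levels was 5.10, 3.50 and 4.80 in the control libraries and 23.3, 20.7 and 25.5 in the piceatannol libraries. It is a ratio of transcripts, given as a description with no test. Its size depends on the gene lengths behind the FPKM. The deposited FPKM imply a length of 7.30 kb for Mmp12, where the merged exons of GENCODE M21 hold 7237 bases and its principal transcript 3607 bases. For Timp3 the merged exons hold 8144 and the principal transcript 4722 bases. With principal transcript lengths the ratio was 6.90 ± 1.27 in control and 33.7 ± 3.41 with piceatannol (SD, n = 3 each). Fold changes of single genes do not depend on these lengths.

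**Figure D3:**
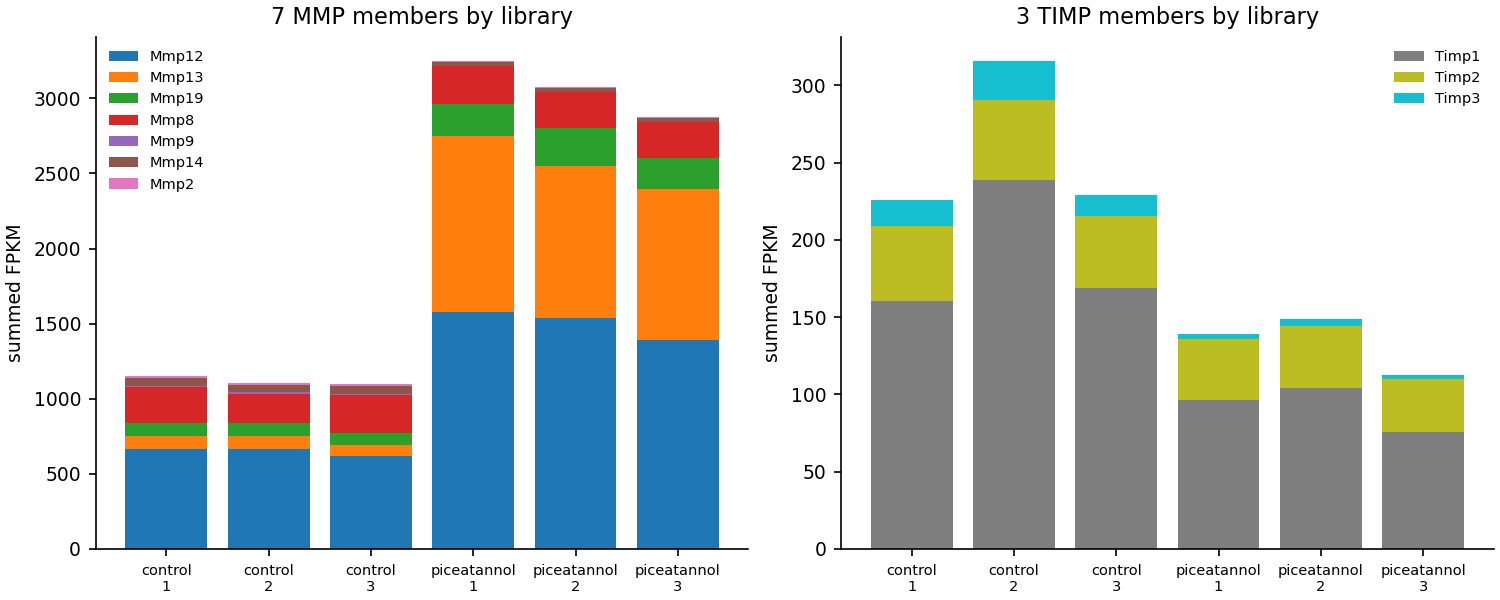
Summed FPKM of the 7 MMP members (left) and the 3 TIMP members (right) in each library, stacked by gene, with separate axes. The MMP sums go from 1101 to 1151 in control to 2876 to 3248 in piceatannol libraries, and the TIMP sums from 226 to 316 down to 113 to 149.

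Mmp8, Mmp12 and Mmp13 share a cluster of 10 MMP genes on chromosome 9, from 7272514 to 7699585. Of these 10 genes, 6 were tested, 5 rose and 0 fell, with Mmp8 as the one not called. Over all tested genes 38.8% rose and 38.3% fell, and Mmp12 and Mmp13 are counted among the members too. Mmp10, the stromelysin 2 gene, went from 6, 18 and 7 counts in control to 242, 141 and 244 counts in piceatannol libraries, a log2 fold change of 4.62 with an SE of 0.31 (edgeR's quasi-likelihood test, adjusted p = 1.61e-10). Even so, at 3.28, 2.45 and 2.85 FPKM with piceatannol it stayed far below Mmp12 and Mmp13. Mmp10 passed the filter on low counts only through its piceatannol libraries. Its place among the 5 that rose thus rests in part on that filter. Mmp27 (1.24) and Mmp3, the stromelysin 1 gene (0.87), also rose, on the log2 scale, and Mmp3 in piceatannol replicate 2 lay at 0.71 FPKM, within the control range of 0.66 to 0.87 FPKM. Mmp1a, Mmp1b, Mmp7 and Mmp20 had at most 3 counts in any library. Mmp8 lies between Mmp10 and Mmp27, both of which rose. Of the 4 flanking genes taken on each side, 7 of 8 were tested, 2 rose and 3 fell.

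**Figure D4:**
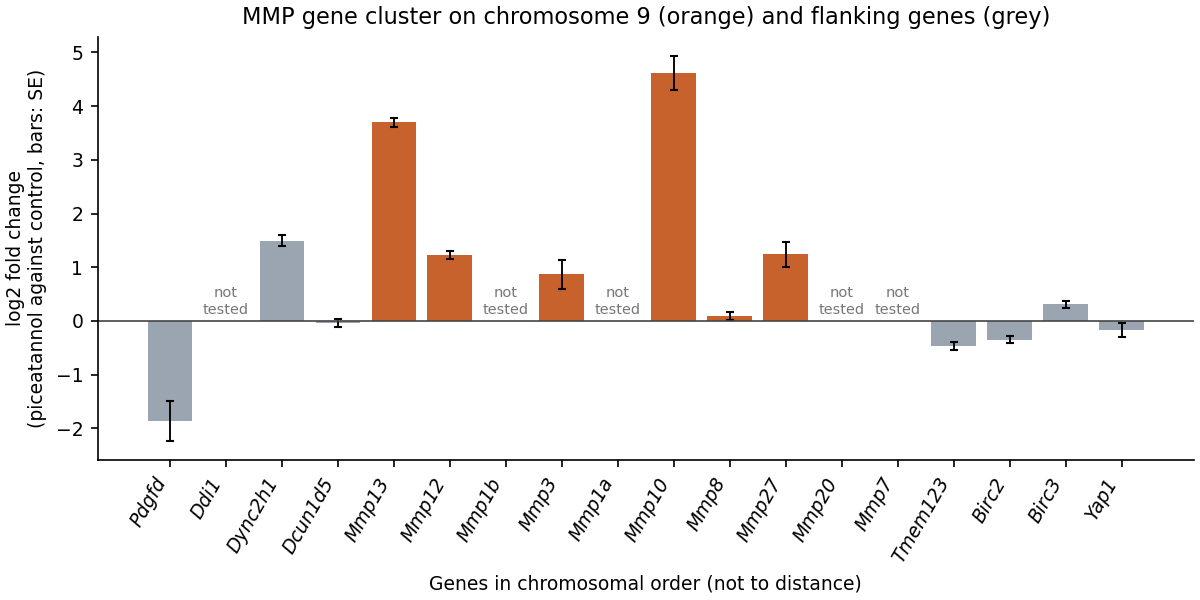
Log2 fold change (bars, with SE) of the MMP genes of the chromosome 9 cluster (orange) and of 4 genes on each side (grey), in chromosomal order and not to distance. Mmp13 (3.70) and Mmp10 (4.62) stand highest, Mmp8 is at 0.09, and genes with too few counts are marked as not tested.

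Outside the members, 17 other MMP and TIMP genes were looked up. Of these 10 were tested, 5 rose and 3 fell (median log2 fold change 0.56). Among those that rose, Mmp10 and Mmp15 passed the filter on low counts only through their piceatannol libraries. The count and the median thus rest in part on that filter. Mmp15 (log2 fold change 2.94) had 6 counts over the control and 38 over the piceatannol libraries. Besides those of the cluster, Mmp11, the stromelysin 3 gene, rose from 0.71, 1.03 and 1.00 FPKM to 2.84, 2.60 and 2.57 FPKM (log2 fold change 1.57). Mmp25, which encodes a membrane-anchored MMP of leukocytes known from neutrophils, fell from 40.6, 40.0 and 39.1 FPKM to 10.6, 17.2 and 13.8 FPKM (-1.50). Its control libraries lay close together, and the part of the falling neutrophil markers in this result was not tested. Mmp23 (-0.89) also fell, from 6.34, 7.00 and 5.91 FPKM to 3.40, 3.58 and 3.23 FPKM. Mmp16 (-1.97) fell too but was very low, at 0.09 to 0.18 FPKM in control and 0.03 to 0.04 FPKM in piceatannol libraries. Timp4 had 1 count over all libraries.

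Genes that activate or restrain MMPs moved in both directions. Of 21 listed, 19 were tested, 11 rose and 5 fell (median log2 fold change 0.49). Furin, a proprotein convertase that removes the propeptide of membrane-type MMPs, rose by 0.92 on the log2 scale, from 435, 407 and 414 CPM to 737, 833 and 800 CPM. Bsg, encoding basigin, known as an inducer of MMPs in neighbouring cells, rose by 1.06, and Plgrkt, encoding a plasminogen receptor, by 1.04. Serpinb2 (-1.96), which encodes an inhibitor of urokinase, fell, as did S100a10 (-1.28), which encodes another plasminogen-binding protein. The urokinase gene Plau, named after its values were seen, rose by 1.07, from 92.3, 100.3 and 83.7 CPM to 211, 180 and 189 CPM. Plasmin, the product of urokinase action, can activate several MMP proenzymes, and its own gene Plg was at 0 counts in every library. Reck, a membrane-bound MMP inhibitor gene also named after its values were seen, was low at 0.47, 0.57 and 0.36 FPKM and rose to 0.67, 0.79 and 0.74 FPKM (log2 fold change 0.68).

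Of 13 tested genes of the related ADAM and ADAMTS proteinases, 2 rose and 9 fell (median log2 fold change -0.24). Adamts1, of a secreted aggrecan- and versican-cutting enzyme, rose by 2.41, and Adam8, of a leukocyte membrane proteinase, by 0.65. Adam15 (-1.03), Adamts10 (-1.91) and Adamts5 (-2.99) fell. Among extracellular matrix genes, many of which encode substrates of such enzymes, 4 of 23 tested rose and 16 fell, with a median of -1.18. Tgfbi (-3.03), Col5a1 (-2.08) and Col1a1 (-2.04) fell, while Spp1, encoding osteopontin (1.43), Lamc1, a laminin chain gene (1.20), and Ecm1 (0.55) rose. Of this list, 3 collagen genes are also in the list of stromal markers, which fell. The counts of these lists stand beside 38.8% of all tested genes rising and 38.3% falling, and beside a median log2 fold change of 0.01 over all tested genes.

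**Figure D5:**
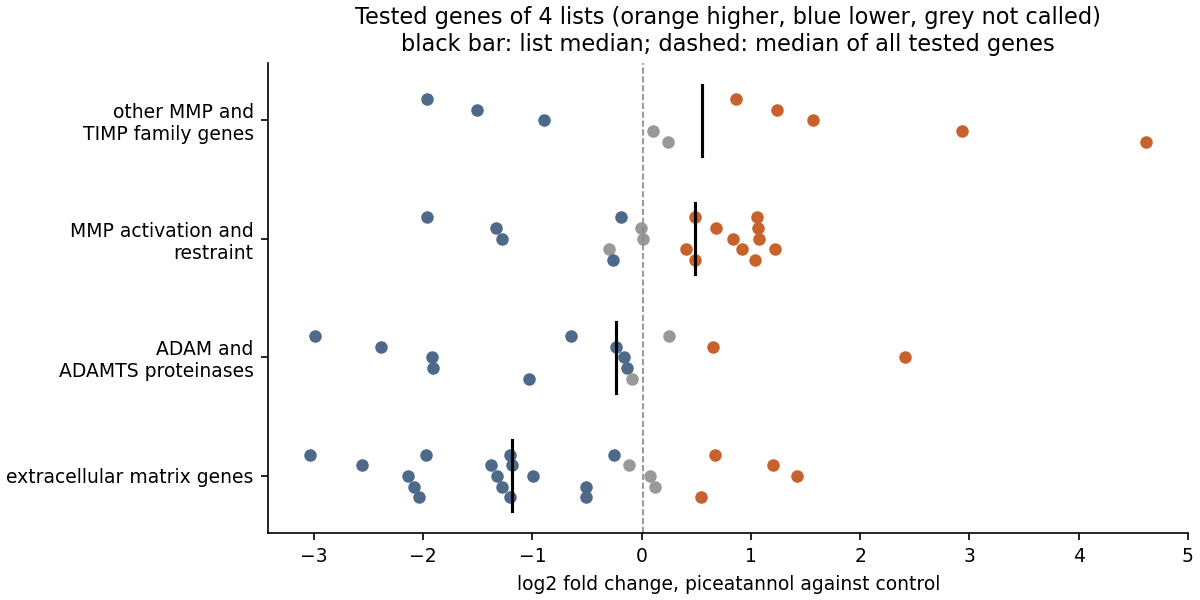
Log2 fold change of each tested gene of 4 lists (points), with the list median (black bar) and the median of all tested genes (dashed line). The medians are 0.56 for other MMP and TIMP genes, 0.49 for activation and restraint, -0.24 for ADAM and ADAMTS genes and -1.18 for matrix genes. Among the other MMP and TIMP genes, Mmp10 and Mmp15 passed the filter on low counts only through their piceatannol libraries.

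The genes nearest to Mmp12 in pattern over the 6 libraries, by Euclidean distance of mean-centred log2 CPM, were Higd1a (0.081), Arhgap10 (0.0813) and Dnajb1 (0.0969). For Timp1 they were Galnt16 (0.256), Rsph1 (0.273) and Pawr (0.277). With 2 groups of 3 libraries, this likeness mostly reflects a similar fold change.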

How the data were processed

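RNA of 6 libraries of mouse bone marrow derived macrophages, 3 control and 3 piceatannol, was analysed from 2 tables that the authors deposited: raw counts per gene symbol, and FPKM (fragments relative to gene length and sequencing depth) for the same genes. Bcl2fastq, STAR, featureCounts and DESeq2 with mm10 and GRCm38 are named in the submitters' processing notes; versions, annotation and strand setting were not given in the sources used here. For the members, the gene lengths implied by counts and FPKM lie close to the merged exons of GENCODE M21.

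Differences were tested on the deposited counts with edgeR 4.0.16 in R 4.3.3 (quasi-likelihood test, robust, two-sided). Genes passed filterByExpr with a minimum count of 10, libraries were scaled by TMM, and p-values were adjusted by Benjamini-Hochberg over all 15380 genes tested, with a threshold of 0.05. CPM were computed on these scaled totals. The procedure was also run on simulated counts, in which few genes changed and all genes shared the same spread between libraries. That setting differs from these data, where 77% of tested genes were called, so it does not show how the procedure performs here. No list test was run. The rule for named genes took all 10 members, genes overlapping a member, other family genes with a mean of at least 1 FPKM in either group, and the 3 smallest p in each direction of each other list; any other name was chosen after its values were seen. A listed gene is not reported here. For the most abundant MMP and TIMP, it took the 3 genes nearest in pattern. The alternatives were other scalings, filters, tests (DESeq2 1.42.0, limma 3.58.1) and thresholds, the FPKM table, a replicate block and leaving out each library. After the data were seen, leaving out mitochondrially encoded genes and another gene length were added, and the promoter motifs were chosen. The members and lists were chosen with earlier results of these data known.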

Additional observations from a re-analysis of the deposited data

How the results depend on the processing

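The counts of members that rose (3) and fell (6) were the same under every alternative run: RLE factors, upper-quartile factors, library totals, no filter, a filter at 5 CPM in 3 libraries, DESeq2, limma-voom, limma on the FPKM table with a pseudocount of 1 or 0.1, the replicate block, an adjusted p of 0.01, each library left out in turn, and mitochondrially encoded genes left out. The log2 fold change of Mmp8 changed sign without control replicate 2 (-0.0177, adjusted p = 0.815) and otherwise lay up to 0.16 (without control replicate 3). It passed under none of its 17 alternatives, where the adjusted p lay between 0.1002 and 0.815 (edgeR, DESeq2 or limma). Over its alternatives Timp1 lay between -1.13 and -0.82, with an adjusted p of at most 0.0303 (without piceatannol replicate 1), and Timp3 between -2.57 and -2.08, with at most 0.0169. Nothing in the labels says whether the replicate number of the titles pairs the samples, so pairing could not be settled. Same-numbered libraries had deviations from their group means that correlated weakly, at 0.0369, 0.0696 and 0.0654. Libraries of different number correlated at -0.0717 to 0.0174. Each library correlated best with its own number, a hint from the data and not from the design. The deviations cancel out within each group, so these correlations are tied to each other and are not separate pieces of evidence. With the replicate block 12012 genes were called, in place of 11846, and 3 members rose and 6 fell. That fit gave smaller adjusted p for Timp1 (2.43e-06), Timp3 (1.06e-16) and Mmp9 (2.6e-12), by edgeR. With 3 libraries a group, the spread of Timp1, Timp3 and Mmp9 between libraries limits the precision of their fold changes. For each of these genes replicate 2 was the highest library in both groups. Part of that spread thus followed the replicate number, whose meaning was not settled.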
